A study of Mus musculus with 2 samples.

Results

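The interleukin-1 and interleukin-18 system was followed through the cells of the mouse mesentery as 9 genes: the ligands Il1a, Il1b and Il18, the IL-1 receptor antagonist Il1rn, the IL-1 receptors Il1r1 and Il1r2, the IL-18 receptor subunits Il18r1 and Il18rap, and the IL-18 binding protein Il18bp. The 9 were taken by symbol from the 27998 genes of the count matrix, and each matched 1 row. All cells came from whole mesenteries of 2 untreated, wild-type male C57BL/6N mice, digested with Liberase DH and loaded on the 10x Genomics Chromium 3′ V2 chemistry, with 1 library per mouse. The labels give a date of birth but no age at harvest, there is no treated or mutant group, and the comparisons below are between cell classes within these mice.

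IL-1α and IL-1β are related ligands that act on the signalling receptor encoded by Il1r1, which recruits the shared accessory chain IL1RAP and the adaptor MyD88 and activates NF-kB. Il1rn encodes a secreted ligand-like protein that occupies the receptor without signalling, and Il1r2 encodes a decoy receptor that lacks the signalling domain. IL-18 is made as a precursor, like IL-1β, and is cut by caspase-1 in inflammasomes; it acts on a receptor of Il18r1 and Il18rap, which lymphocytes carry, and is neutralised by the secreted protein of Il18bp.

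The receptor genes lie in the same region of mouse chromosome 1 in GRCm38 (GENCODE M21 annotation), all on the plus strand. Il1r2 spans chr1:40074079-40125231, Il1r1 chr1:40225080-40317257, Il18r1 chr1:40465552-40500854 and Il18rap chr1:40515362-40551705, so that 14507 bases separate the IL-18 receptor genes. Wider gaps follow Il1r2 (99848 bases) and Il1r1 (148294 bases). Genes other than the members were not looked for in these gaps. Il1a (chr2:129299610-129309972) and Il1b (chr2:129364570-129371139) both lie on the minus strand of chromosome 2, 54597 bases apart. Il1rn lies elsewhere on chromosome 2 (chr2:24336853-24351494, plus strand), Il18 on chromosome 9 (chr9:50554827-50581840, plus strand) and Il18bp on chromosome 7 (chr7:102014885-102018690, minus strand). All 9 are annotated as protein coding. The upstream 250 bases are shown for the ligand pair, whose levels ran opposite ways between myeloid classes, and for the IL-18 receptor pair, both found in the same lymphoid classes. They are RefSeq promoter windows of GRCm38.p6, printed 5′ to 3′ on the gene's strand and ending at the base before the transcript start, with motif matches in capitals.
Il1a, chr2:129309973-129310222, minus strand: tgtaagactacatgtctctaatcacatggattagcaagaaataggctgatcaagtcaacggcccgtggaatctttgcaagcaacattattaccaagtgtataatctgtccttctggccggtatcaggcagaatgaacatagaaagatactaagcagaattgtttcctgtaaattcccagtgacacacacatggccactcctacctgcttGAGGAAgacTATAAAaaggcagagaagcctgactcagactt
Il1b, chr2:129371140-129371389, minus strand: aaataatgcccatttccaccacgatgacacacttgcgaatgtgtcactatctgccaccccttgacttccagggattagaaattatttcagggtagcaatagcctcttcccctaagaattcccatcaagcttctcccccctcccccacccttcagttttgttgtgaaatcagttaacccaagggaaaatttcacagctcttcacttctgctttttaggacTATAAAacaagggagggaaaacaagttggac
Il18r1, chr1:40465756-40466005, plus strand, the most downstream of its 3 windows: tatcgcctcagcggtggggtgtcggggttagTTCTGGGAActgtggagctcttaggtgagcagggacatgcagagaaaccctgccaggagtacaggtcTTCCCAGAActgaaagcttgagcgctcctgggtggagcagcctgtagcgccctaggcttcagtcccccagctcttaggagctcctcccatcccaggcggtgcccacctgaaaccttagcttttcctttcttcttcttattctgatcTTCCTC
Il18rap, chr1:40515112-40515361, plus strand: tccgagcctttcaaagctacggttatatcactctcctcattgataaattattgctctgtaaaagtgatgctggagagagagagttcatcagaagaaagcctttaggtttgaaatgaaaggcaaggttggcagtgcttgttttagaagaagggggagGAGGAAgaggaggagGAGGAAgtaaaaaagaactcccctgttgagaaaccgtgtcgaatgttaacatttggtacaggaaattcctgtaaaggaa
Both ligand windows held TATAAA, which began 32 bases upstream of the start of Il1a and 31 bases upstream of that of Il1b; 12.37% of 32851 RefSeq windows of the same length held these letters on either strand. The PU.1 core GAGGAA, in 23.25% of all windows, occurred in the windows of Il1a and Il18rap (2 matches) and, on the other strand, in the Il18r1 window shown, which also held 2 matches to the STAT pattern TTCNNNGAA (7.02% of all windows). No match shown overlaps another. An NF-kB pattern (14.89% of all windows), the T-box letters TCACAC (12.29%) and an interferon response element (2.98%) were searched on both strands too and matched none of these 4 windows. The other 2 Il18r1 windows, chr1:40465302-40465551 and chr1:40465371-40465620, held no match to any of the 6 patterns searched. The Il18r1 window shown lies inside the gene span given above, before a more downstream transcript start.

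The 2 libraries held 1517 and 1687 barcodes with 5137671 and 5563521 UMIs (unique molecular identifiers, each counting 1 captured RNA molecule), and shared no barcode sequence. After filtering, 3100 cells (1445 and 1655) fell into 18 clusters, of which 16 were assigned to 12 cell classes by marker genes. The classes held 76 to 991 cells with median depths of 1517 to 6110 UMIs. The 9 genes and the related gene lists used below were kept out of the clustering and of the markers. Levels are UMIs of a gene per 1000000 UMIs (CPM) of all cells of a class in a library, first library 1 and then library 2. Within a class, a larger share of cells carrying a transcript and more of it per cell give the same CPM, so shares of cells with a UMI are given beside it. Those shares were computed after each cell was thinned to 1000 UMIs, with exact binomial 95% intervals over the cells of both libraries, which cover counting error only.

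The class names rest on the markers to unequal degrees. Mesothelial-like cells carried Upk3b at 2220 and 2121 CPM and all 10 mesothelial markers. Gamma-delta T-like cells (88) rest on Cd163l1 at 869 and 888 CPM, Blk and Il23r, while 5830411N06Rik was at 0. The monocyte-like class (165 cells) was led by Lyz1 and Ear2 and had 5 macrophage markers above 2-fold. Its markers differed between library 1 and library 2. Neutrophil markers summed to 31.2 and 838 CPM, Ly6c2 stood at 18.7 and 218 CPM and Lyz1 at 4556 and 2439 CPM. The part of this difference in the monocyte-like levels below was not tested. Endothelial-like cells also carried 4 adipocyte markers above 2-fold, and pericyte-like cells 10 endothelial markers. A cluster of 51 cells, called the Top2a cluster below, stayed without a name. Top2a, Mki67 and Xcr1 were among its leading genes, and it had 6 dendritic markers above 2-fold and 10 of 10 fibroblast markers. The share of its cells that were dividing was not measured. A cluster of 29 cells led by Il13 also stayed without a name.

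Il1b was the most abundant of the 9 genes, with 2248 UMIs in 286 cells, followed by Il1r1 (456), Il1rn (368), Il18 (196), Il18r1 (128), Il1a (91), Il18rap (77), Il1r2 (67) and Il18bp (56). Myeloid classes (monocyte-, dendritic- and macrophage-like) held 96.7% of the Il1b UMIs, 96.7% of the Il1a UMIs and 95.8% of the Il1rn UMIs found in named classes. The lymphoid classes held 79.8% of the Il18r1 UMIs and 85.9% of the Il18rap UMIs. Fibroblast-like cells held 80.9% of the Il1r1 UMIs and mesothelial-like cells 59.1% of the Il18 UMIs. Between classes, each gene was tested with edgeR's quasi-likelihood F-test on summed counts with library as a block and Benjamini-Hochberg adjustment over 7499 genes, and called at an adjusted p under 0.05. Il1r2 and Il18bp did not pass the filter on low counts, so 7 of the 9 genes were tested.

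**Figure D1:**
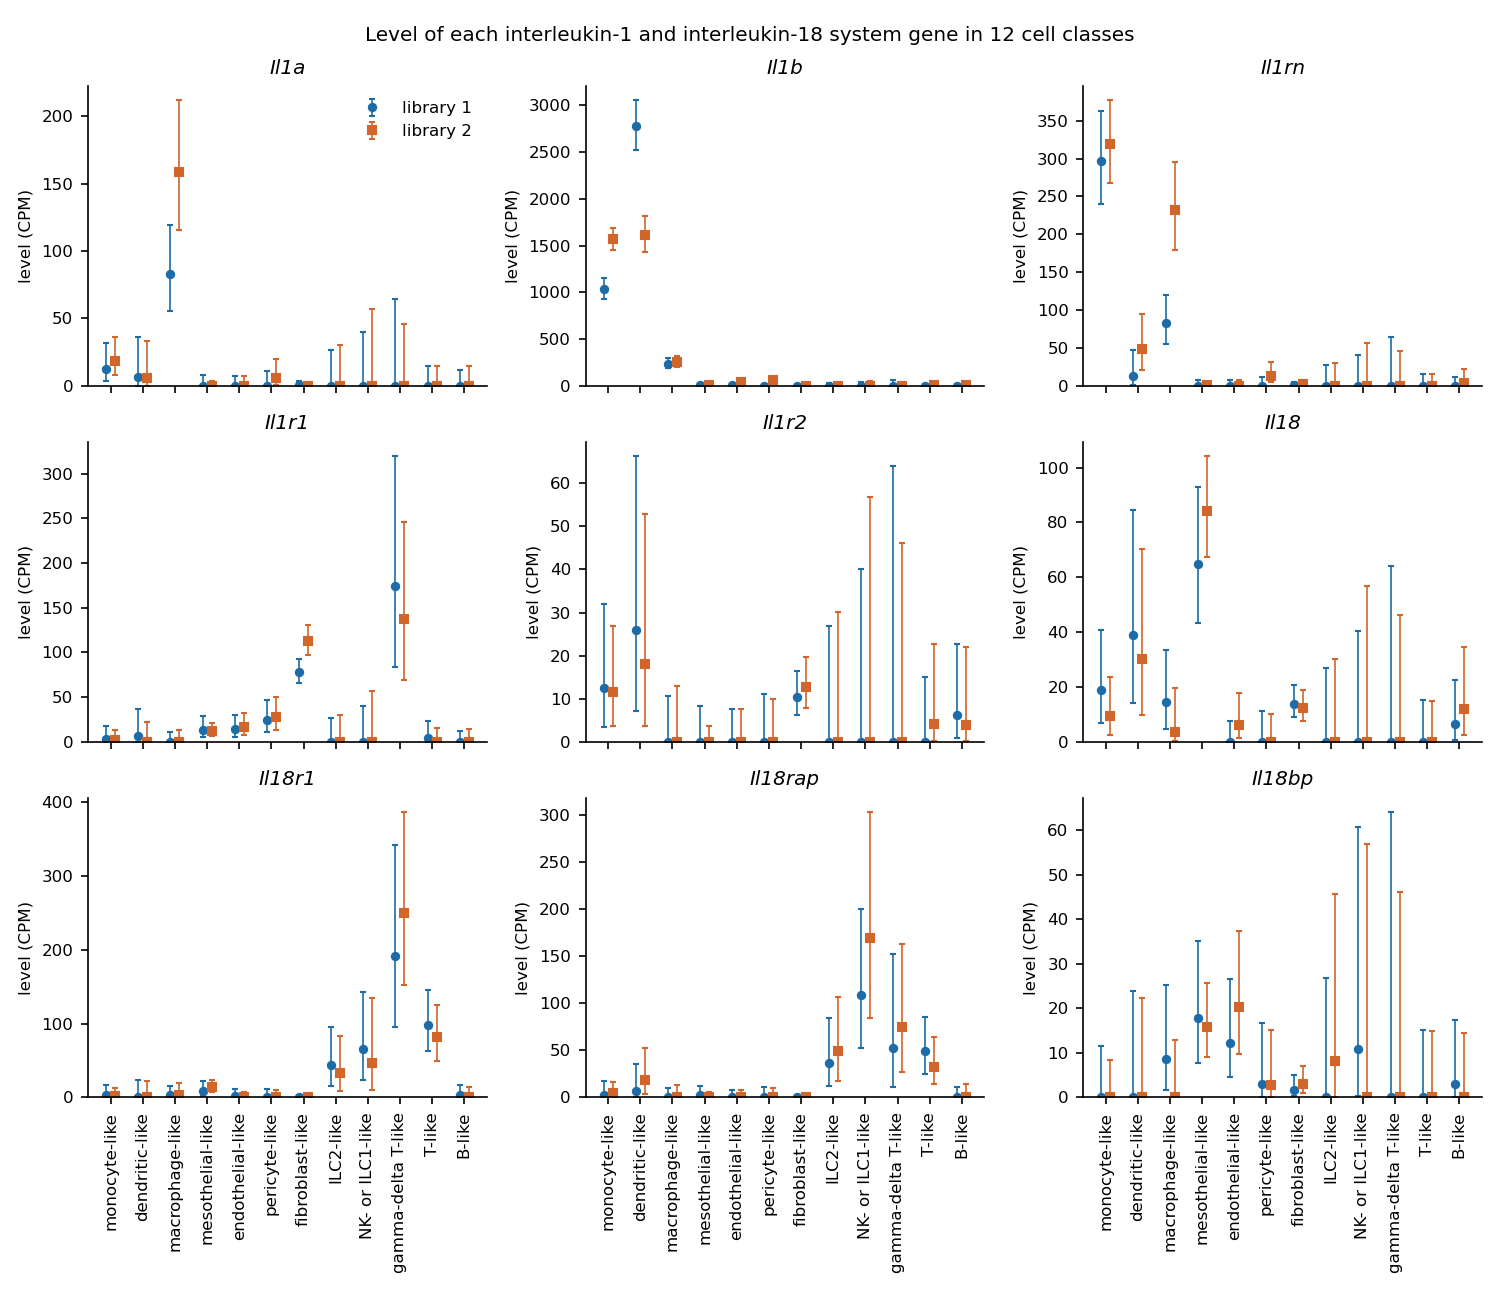
Level of each of the 9 genes (y axis, CPM, a scale of its own in each panel) in the 12 cell classes (x axis), with a point per library and bars for exact Poisson 95% intervals of the counts. Il1b stood at 1039.9 to 2779 CPM in monocyte- and dendritic-like cells of both libraries, Il1r1 in gamma-delta T- and fibroblast-like cells, and Il18r1 and Il18rap in lymphoid classes.

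Il1b, which encodes the main secreted form of IL-1, was highest in dendritic- and monocyte-like cells. It stood at 2779 and 1615 CPM in dendritic-like cells and at 1039.9 and 1567 CPM in monocyte-like cells, against 238 and 257 CPM in macrophage-like cells. The ranges of these classes did not overlap, although the lower dendritic-like value (1615 CPM) and the higher monocyte-like value (1567 CPM) lay close. After thinning, 54.7% of dendritic-like cells (42.7 to 66.2%) and 42.0% of monocyte-like cells (34.3 to 50.0%) had an Il1b UMI, against 14.8% of macrophage-like cells (10.5 to 19.9%). The highest single cell held 20.3% of the dendritic-like UMIs in library 1 and 14.6% in library 2. B-like cells, which gave the highest share among the lymphoid classes, had 0.897% (0.109 to 3.20%) at a median depth of 1831 UMIs, against 4412 UMIs for monocyte-like cells, and the lymphoid classes together held 5 Il1b UMIs in 795 cells.

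Monocyte-like over macrophage-like, Il1b was higher by a log2 fold change of 2.33 ± 0.32 (SE), with an edgeR adjusted p of 1.7e-07, and dendritic-like over macrophage-like by 3.21 ± 0.33, adjusted p of 7.36e-11. In both libraries the sign was the same, with 2.09 and 2.55 in library 1 and library 2 for monocyte-like cells and 3.58 and 2.67 for dendritic-like cells. DESeq2's Wald test gave 2.23 ± 1.12 for the monocyte-like comparison and did not call it (adjusted p of 0.191).

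Il1a ran the other way among the same cells. Monocyte-like cells had 12.5 and 18.4 CPM and dendritic-like cells 6.48 and 6.03 CPM, against 83.3 and 158 CPM in macrophage-like cells, which held 81.3% of the Il1a UMIs of named classes. The log2 fold change was -2.99 ± 0.52 for monocyte-like over macrophage-like cells (edgeR adjusted p of 1.81e-05) and -4.19 ± 0.80 for dendritic-like over macrophage-like cells (adjusted p of 7.19e-05), with 2 UMIs in all behind the dendritic-like level. Pericyte-like cells had 2 Il1a UMIs, fibroblast-like cells 1, and the other 7 classes none. After thinning, 8.02% of macrophage-like cells (4.90 to 12.2%) had an Il1a UMI, with 4.24% in library 1 and 11.8% in library 2.

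Il1rn, the antagonist, was highest in monocyte-like cells, at 297 and 319 CPM, against 83.3 and 232 CPM in macrophage-like cells, where the libraries differed nearly as much as the classes. Dendritic-like cells, which had the most Il1b, had 2 and 8 UMIs of Il1rn, the higher of which was 48.2 CPM, below both macrophage-like values. After thinning, 19.8% of monocyte-like cells (13.9 to 26.7%) and 4.00% of dendritic-like cells (0.833 to 11.2%) had an Il1rn UMI, against 9.70% of macrophage-like cells (6.25 to 14.2%). Dendritic-like over macrophage-like the log2 fold change was -2.27 ± 0.49 (edgeR adjusted p of 0.000369). Monocyte-like over macrophage-like it was 0.95 ± 0.24 (adjusted p of 0.00231), but the value was 1.79 in library 1 and 0.40 in library 2, DESeq2 did not call it (adjusted p of 0.242), and at a clustering resolution of 0.5 it was 0.38 and not called (adjusted p of 0.278).

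In the monocyte-like over macrophage-like comparison, 18.9% of the 7499 genes were called, and 3 of the 7 tested members were, Il1b and Il1rn higher and Il1a lower. In the dendritic-like over macrophage-like comparison the background was 20%, and again 3 of 7 members were called, Il1b higher and Il1a and Il1rn lower. Per cell, Il1b and Il1rn were found together in 17 of 162 thinned monocyte-like cells (10.5%, against 8.29% if the genes were detected independently). Il1b and Il1a were found together in 8 of 237 macrophage-like cells (3.38%, against 1.18% under independence), all 8 in library 2.

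**Figure D2:**
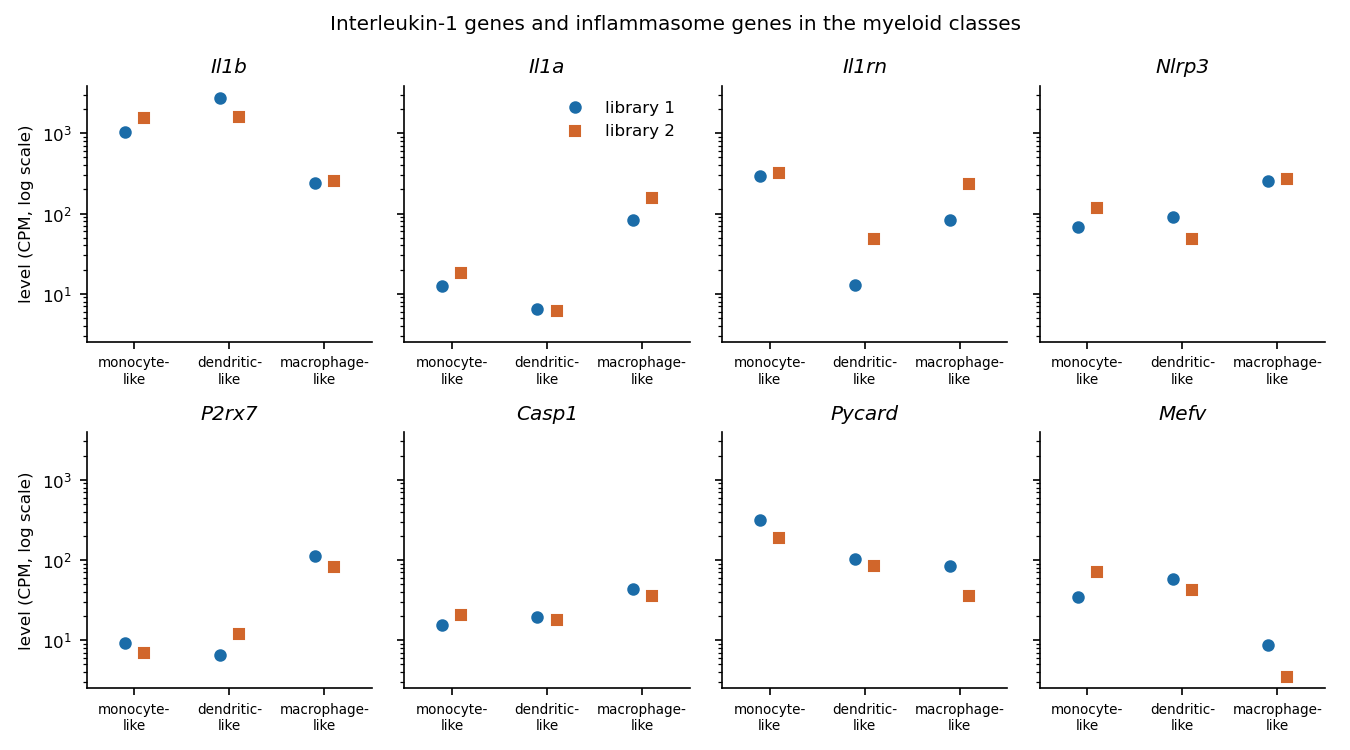
Levels (y axis, CPM on a log scale) of Il1b, Il1a, Il1rn and 5 inflammasome genes in monocyte-, dendritic- and macrophage-like cells (x axis), with a point per library. Il1a, Nlrp3 and P2rx7 were highest in macrophage-like cells, Pycard was highest in monocyte-like cells and Mefv was lowest in macrophage-like cells.

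The genes that process IL-1β and IL-18 were also unequal among these classes. Of 14 inflammasome and processing genes, 9 were tested, and in monocyte-like over macrophage-like cells 2 were higher, 3 lower and 4 not called, with a median log2 fold change of -0.89 against 0.06 for all genes. Nlrp3, the sensor of the main inflammasome, had 68.7 and 117 CPM in monocyte-like cells and 90.7 and 48.2 CPM in dendritic-like cells, against 256 and 267 CPM in macrophage-like cells. Its log2 fold change was -1.51 ± 0.24 for monocyte-like cells (edgeR adjusted p of 4.78e-06) and -1.90 ± 0.33 for dendritic-like cells (adjusted p of 1.52e-05). P2rx7, an ATP-gated channel upstream of NLRP3, had 9.37 and 6.89 CPM in monocyte-like cells, against 112 and 80.9 CPM in macrophage-like cells (log2 fold change -3.63 ± 0.59, adjusted p of 5.2e-06). Pycard, the adaptor ASC, went the other way, with 315 and 186 CPM in monocyte-like cells, against 83.3 and 35.2 CPM in macrophage-like cells (1.96 ± 0.26, adjusted p of 5.71e-08), and Mefv, which encodes pyrin, was also higher (2.95 ± 0.78, adjusted p of 0.00456). Casp1 itself had 15.6 and 20.7 CPM in monocyte-like cells, against 43.1 and 35.2 CPM in macrophage-like cells, and was not called. In dendritic-like over macrophage-like cells, Mefv was higher and Nlrp3, P2rx7 and Casp4, an inflammatory caspase that senses lipopolysaccharide, were lower.

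Among the other named classes, the highest Il1b levels were those of endothelial- and pericyte-like cells of library 2. Endothelial-like cells had 4.08 and 36.6 CPM, against 2.88 and 1.22 CPM in fibroblast-like cells, and the comparison was called (log2 fold change 2.86 ± 0.82, edgeR adjusted p of 0.00331). In library 1 the value was 0.23 and in library 2 it was 4.38, and DESeq2 did not call it (adjusted p of 0.0926). The 18 library 2 UMIs lay in 6 endothelial-like cells. Those cells carried 5 of 11 monocyte markers, Lyz2 foremost, at a summed 1078 CPM, against 133 CPM in the 156 endothelial-like cells without an Il1b UMI, while Ly6c2, Chil3, Lyz1, Ear2, Ms4a4c and Mmp12 were at 0. Their macrophage markers summed to 41.5 CPM (1 of 12 detected), against 96.3 CPM in the cells without Il1b. Pericyte-like cells had 0 and 59.8 CPM of Il1b; its 22 UMIs came from 3 cells of library 2, 13 of them from 1 cell, and those 3 cells carried 7 of 11 monocyte markers at 6706 CPM, against 128 CPM in the other 81, with Ly6c2, Chil3 and Ms4a4c among those at 0. Endothelial-like cells of library 2 also had erythroid markers at a summed 32703 CPM, against 16.3 CPM in library 1. Their fibroblast markers summed to 2976 CPM, against 1122 CPM in library 1. The part of myeloid RNA, or of RNA from other cells, in the Il1b values was not tested.

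Il1r1, the signalling receptor, was found in gamma-delta T-like cells and in stroma. It had 174 and 138 CPM in gamma-delta T-like cells and 78.4 and 113 CPM in fibroblast-like cells; pericyte-like cells followed at 23.9 and 27.2 CPM, endothelial-like cells at 14.3 and 16.3 CPM and mesothelial-like cells at 13.4 and 11.9 CPM. Each of these classes lay above the next in both libraries, although the gamma-delta T-like level rests on 21 UMIs. The pericyte-, endothelial- and mesothelial-like levels rest on 18, 15 and 18 UMIs. Their Poisson intervals over both libraries overlap (15.2 to 40.5, 8.55 to 25.2 and 7.32 to 19.5 CPM), so their order is uncertain. The remaining classes had at most 2 UMIs each. Macrophage-like cells had 0 Il1r1 UMIs, which allows up to 4.74 CPM, and ILC2-like cells had 0, which allows up to 11.6 CPM (3 counts over both libraries).

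Among stromal classes the difference was large. Mesothelial-like over fibroblast-like cells, Il1r1 fell by 3.15 ± 0.29 on the log2 scale (edgeR adjusted p of 1.99e-12), with 2.88% of thinned mesothelial-like cells (1.17 to 5.84%) having a UMI, against 9.22% of fibroblast-like cells (7.47 to 11.2%). Endothelial-like over fibroblast-like cells, it fell by 2.86 ± 0.32 (adjusted p of 1.31e-10), with a share of 0.915% (0.189 to 2.65%) in endothelial-like cells. In the mesothelial-like over fibroblast-like comparison 35.3% of all genes were called, and 3 of 7 members. In the endothelial-like over fibroblast-like comparison 44% of all genes were called, and again 3 of 7 members.

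The fibroblast-like class joins 4 clusters, and Il1r1 was uneven across them. It was highest in the cluster led by Cxcl14, Fam150b and Inmt, at 153 and 226 CPM, followed by the cluster led by Has1, Thbs1 and Tnfaip6, at 88.5 and 149 CPM, and the cluster led by Mfap4 and Mgp, at 71.7 and 51.1 CPM. The cluster led by Pi16 and Krtdap had 25.5 and 32.1 CPM, below every other fibroblast-like value. The Cxcl14 and Has1 clusters did not overlap, but at their nearest stood at 153 and 149 CPM, and the Pi16 cluster had the deepest cells (median 4466 UMIs, against 2969 in the Cxcl14 cluster). Il6, a cytokine that fibroblasts make when IL-1 acts on them, had 653 and 865 CPM in the Cxcl14 cluster, 696 and 578 CPM in the Has1 cluster and 674 and 381 CPM in the Mfap4 and Mgp cluster, which overlap, and 146 and 69.5 CPM in the Pi16 cluster. No test was run between these clusters.

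**Figure D3:**
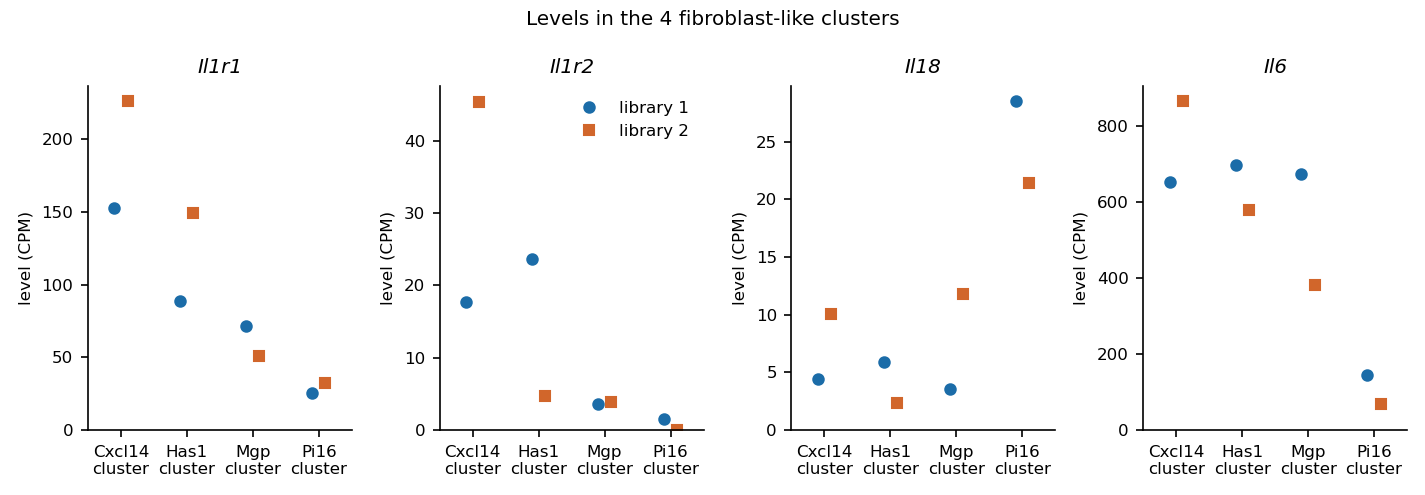
Levels (y axes, CPM, a scale of its own in each panel) of Il1r1, Il1r2, Il18 and Il6 in the 4 fibroblast-like clusters (x axis, named by a leading gene), with a point per library. In the Pi16 cluster Il1r1 and Il6 were lowest and Il18 was highest in both libraries.

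In lymphoid cells Il1r1 stood out in 1 class. Gamma-delta T-like cells had 10 and 11 UMIs of Il1r1, against 1 and 0 UMIs in T-like cells, which had 4.08 and 0 CPM. The difference was called (log2 fold change 5.66 ± 0.86, edgeR adjusted p of 1.21e-05), with a background of 3.8% of genes called and 1 of 7 members. With 1 UMI behind the T-like level the size of the fold is uncertain, and it was 4.87 in library 1, while library 2 had no T-like UMI to set a fold against. DESeq2 gave no adjusted p for it. After thinning, 15.4% of gamma-delta T-like cells (8.21 to 25.3%) had an Il1r1 UMI, against 0.424% of T-like cells (1 of 236). The fibroblast markers of these cells stood at 77.5 and 234 CPM in the cells with an Il1r1 UMI and at 179 and 143 CPM in those without, against 42413 and 38955 CPM in fibroblast-like cells; 1 and 2 of 10 markers were detected in the cells with Il1r1, and Lum, Pdgfrb, Col6a1 and Clec3b were at 0 in both libraries.

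Il1r2, the decoy receptor, was scarce everywhere. Dendritic-like cells had 25.9 and 18.1 CPM, from 7 UMIs; monocyte-like cells had 12.5 and 11.5 CPM and fibroblast-like cells 10.4 and 12.8 CPM, 2 classes whose ranges overlap. Fibroblast-like cells held 39 of the 59 Il1r2 UMIs of named classes, and 26 of those 39 lay in the Cxcl14 cluster, at 17.7 and 45.3 CPM. In the Has1 cluster the libraries differed, with 23.6 and 4.66 CPM, from 8 and 2 UMIs. Of the 18 fibroblast-like Il1r2 UMIs of library 1, 6 lay in 1 cell, whose cluster is not given here. In 7 classes there was no Il1r2 UMI, macrophage-like cells among them.

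The genes downstream of the receptor were followed in lists. Of 13 receptor signalling genes, 9 were tested; mesothelial-like over fibroblast-like cells, 3 were lower and none higher, a share close to the 35.3% of all genes called there, with a median log2 fold change of -0.48 against 0.01 for all genes. The lower ones were Irak3 (log2 fold change -3.03 ± 0.38, edgeR adjusted p of 4.95e-09), which encodes a kinase-like inhibitor of the pathway, Nfkb1 and Myd88. Of 16 stromal genes known to be induced by IL-1, 10 were tested. Mesothelial-like over fibroblast-like cells, 7 were lower and 1 was higher, with a median log2 fold change of -2.23 against 0.01 for all genes; endothelial-like over fibroblast-like cells, 6 were lower and 1 was higher, with a median of -3.28 against -0.07. The chemokine gene Ccl7 stood at 82.6 and 98.1 CPM in mesothelial-like cells and at 18.4 and 189 CPM in endothelial-like cells, against 3642 and 3862 CPM in fibroblast-like cells. The higher gene over fibroblast-like cells was Icam1, an adhesion molecule, in endothelial-like cells (log2 fold change 1.03 ± 0.22, edgeR adjusted p of 8.53e-05). In mesothelial-like cells it was Lcn2, an iron-siderophore binding protein, which they carried at 64.7 and 60.5 CPM, against 0 and 1.22 CPM in fibroblast-like cells. Mesothelial-like cells carried Ptgs2, the inducible cyclo-oxygenase, at 618 and 398 CPM, against 538 and 423 CPM in fibroblast-like cells, which overlap, and was not called there. Macrophage-like cells, with no Il1r1 UMI, carried the neutrophil-attracting chemokine Cxcl2 at 12776 and 13667 CPM and Ccl7 at 7810 and 9811 CPM, the highest levels of both genes among the classes.

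Il18, the other inflammasome-dependent ligand, was highest in mesothelial-like cells, which line the peritoneum. They had 64.7 and 84.3 CPM, against 13.8 and 12.2 CPM in fibroblast-like cells, and every mesothelial-like value lay above every value of the other classes. The log2 fold change over fibroblast-like cells was 2.35 ± 0.33 (edgeR adjusted p of 1.01e-07). After thinning, 7.82% of mesothelial-like cells (4.77 to 11.9%) had an Il18 UMI, against 1.35% of fibroblast-like cells (0.719 to 2.29%); without thinning, 33.1% of mesothelial-like cells had a UMI, at a median depth of 6110 UMIs. Dendritic-like cells were next at 38.9 and 30.1 CPM, from 11 UMIs, and then monocyte-like cells at 18.7 and 9.19 CPM, which overlap with fibroblast-like cells. Dendritic-like over macrophage-like cells, the log2 fold change of 1.85 ± 0.80 was not called (adjusted p of 0.106). Endothelial-like cells had 0 and 3 UMIs, and the difference from fibroblast-like cells was called (log2 fold change -2.22 ± 0.75, adjusted p of 0.0132), with a value of -1.21 in library 2, where it could be measured. Within the fibroblast-like class the Pi16 cluster, lowest in Il1r1, was highest in Il18. It had 28.5 and 21.4 CPM of Il18, and the other 3 clusters had 2.33 to 11.8 CPM, from 1 to 4 UMIs in each library. Lymphoid classes other than B-like cells had no Il18 UMI. The annotated genes that overlap Il18 on the other strand, Bco2 and Tex12, had 6 and 1 UMIs in all.

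The IL-18 receptor subunits were found in the same lymphoid classes in different order. Il18r1, the ligand-binding chain, had 191 and 250 CPM in gamma-delta T-like cells, 98.0 and 81.4 CPM in T-like cells, 65.4 and 46.3 CPM in NK- or ILC1-like cells and 43.7 and 32.7 CPM in ILC2-like cells. NK- or ILC1-like cells were highest for Il18rap, the accessory chain, at 109 and 170 CPM, followed by gamma-delta T-like cells at 52.1 and 75.0 CPM, ILC2-like cells at 36.4 and 49.1 CPM and T-like cells at 49.0 and 32.5 CPM, the last 2 classes overlapping. B-like cells had 1 Il18r1 UMI and no Il18rap UMI in 235 cells. Thinned shares with an Il18r1 UMI were 23.1% in gamma-delta T-like cells (14.3 to 34.0%) and 6.78% in T-like cells (3.92 to 10.8%). For Il18rap they were 11.1% in NK- or ILC1-like cells (5.46 to 19.5%) and 4.24% in T-like cells (2.05 to 7.65%), while no thinned B-, macrophage- or fibroblast-like cell had a UMI of either gene.

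In the 4 lymphoid comparisons that were tested, no difference in Il18r1 or Il18rap passed the threshold. Gamma-delta T-like over T-like cells, Il18r1 had a log2 fold change of 0.97 ± 0.43 (p of 0.0276, edgeR adjusted p of 0.292). NK- or ILC1-like over T-like cells, Il18rap had 1.44 ± 0.59 (p of 0.0179, adjusted p of 0.254) and Il18r1 had -0.93 ± 0.57 (adjusted p of 0.613). ILC2-like over T-like cells, Il18r1 had -1.07 ± 0.55 (adjusted p of 0.309), and ILC2-like over NK- or ILC1-like cells, Il18rap had -1.24 ± 0.65 (adjusted p of 0.332). In the 3 comparisons among NK- or ILC1-like, ILC2-like and T-like cells no member was called, against a background of 3.31% of genes for NK- or ILC1-like over T-like cells, 7.59% for ILC2-like over T-like cells and 8.4% for ILC2-like over NK- or ILC1-like cells. The levels rest on 3 to 24 UMIs of either gene in a class and library, and gamma-delta T-like cells were not tested against ILC2-like or NK- or ILC1-like cells.

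**Figure D4:**
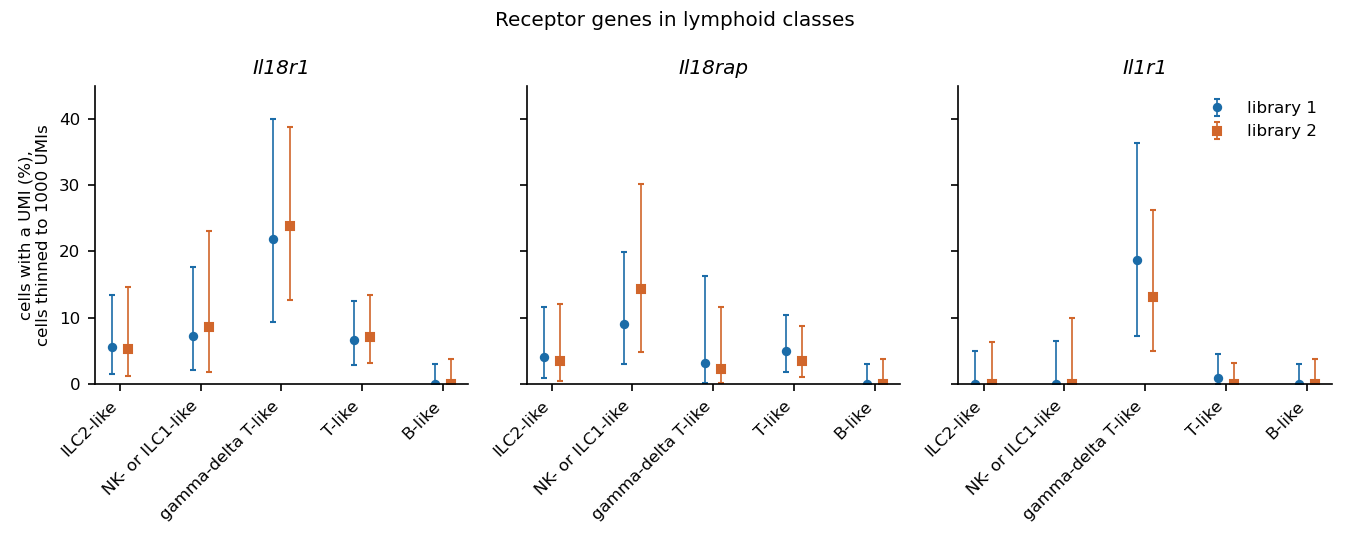
Share of cells with a UMI (y axis, percent, cells thinned to 1000 UMIs) of Il18r1, Il18rap and Il1r1 in 5 lymphoid classes (x axis), with a point per library and exact binomial 95% intervals. Il18r1 was detected in 21.9 and 23.9% of gamma-delta T-like cells, and Il1r1 in 15.4% of them over both libraries and in at most 0.820% of the other lymphoid classes.

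Il18r1 was also found outside lymphocytes, in mesothelial-like cells. They had 8.93 and 13.9 CPM, from 18 UMIs in 14 cells, against 0 and 0.61 CPM in fibroblast-like cells, and the difference was called (log2 fold change 4.25 ± 0.83, edgeR adjusted p of 4.19e-05; 4.73 in library 1 and 3.83 in library 2). The mesothelial markers of the cells with an Il18r1 UMI stood at 5906 and 5217 CPM, against 5995 and 5675 CPM in the mesothelial-like cells without. In the cells with a UMI, 1 and 2 of 9 T markers were detected, Cd3e in library 1 and Cd3e and Cd3d in library 2. Their sums were 34.7 and 27.3 CPM, against 4.77 and 7.48 CPM in the cells without. Cd3g, Cd4, Cd8a, Lef1 and Cd5 were at 0 in both groups and libraries. The part of lymphocyte RNA in the mesothelial-like Il18r1 level was not tested. After thinning, 1.23% of mesothelial-like cells (0.255 to 3.57%) had an Il18r1 UMI, and Il18rap had 1 UMI in each library of the class.

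Il18bp, the soluble inhibitor of IL-18, was low and was highest in the lining classes. Mesothelial-like cells had 17.9 and 15.9 CPM and endothelial-like cells 12.2 and 20.3 CPM, ranges that overlap, against 1.73 and 3.05 CPM in fibroblast-like cells. The mesothelial- and endothelial-like classes held 24 and 16 of 56 UMIs. Numa1 overlaps Il18bp on the opposite strand; its level was 40.2 and 47.6 CPM in mesothelial-like cells and 38.7 and 69.2 CPM in endothelial-like cells, against 23.6 and 34.7 CPM in fibroblast-like cells, and 69.4 and 48.8 CPM in T-like cells, which had no Il18bp UMI. The sources used here do not give the strand use of the counting, so reads of the pair may have been shared.

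**Figure D5:**
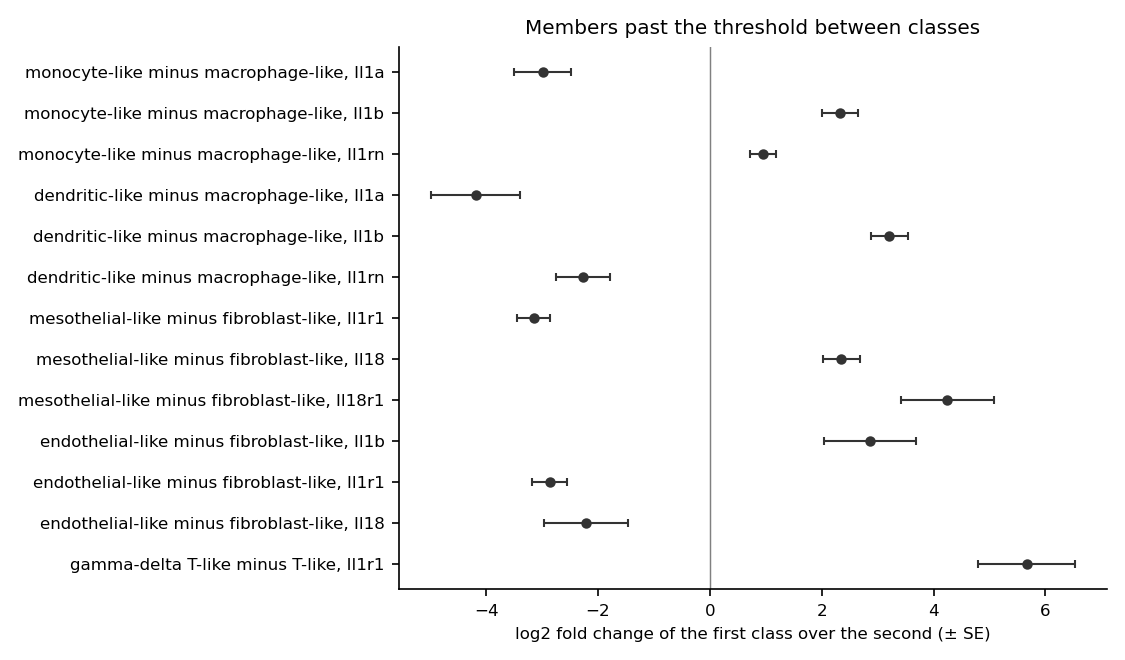
Log2 fold changes with standard errors (x axis) of the 13 member calls, 1 row per comparison and gene (y axis), each for the first class over the second. Il1b lay above 0 in the monocyte- and dendritic-like comparisons and Il1a below 0; the endothelial-like Il1b row rests on library 2.

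The downstream lists were also compared between lymphoid classes. ILC2-like over T-like cells, 6 of 7 NF-kB feedback inhibitors were higher and none lower, with a median log2 fold change of 1.38 against -0.11 for all genes. ILC2-like over NK- or ILC1-like cells, 5 of 7 were higher, with a median of 1.84 against -0.003. Of all genes, 7.59% and 8.4% were called in either direction in these comparisons. Nfkbia, the inhibitor IkBα, had 3842 and 2733 CPM in ILC2-like cells, against 1038 and 879 CPM in T-like cells (1.92 ± 0.20, edgeR adjusted p of 3.02e-10), and Nfkbie had 189 and 164 CPM, against 32.7 and 40.7 CPM (2.42 ± 0.38, adjusted p of 3.62e-06). Of the receptor signalling list, Nfkb1 had 2029.9 and 1972 CPM in ILC2-like cells, against 286 and 321 CPM in T-like cells (2.87 ± 0.22, adjusted p of 1.23e-14). ILC2-like cells had no Il1r1 UMI, which allows up to 11.6 CPM. They had 43.7 and 32.7 CPM of Il18r1 and 36.4 and 49.1 CPM of Il18rap, neither called against T-like cells. Il1rl1, the IL-33 receptor of the same family, had 829 and 704 CPM in ILC2-like cells, against 114 and 155 CPM in T-like cells. Within the T-like class the Foxp3-bearing cluster of 24 cells had 1080 and 1381 CPM of Il1rl1. The link of any of these receptors to the NF-kB inhibitor levels was not tested. Gamma-delta T-like over T-like cells, Nfkbia was lower (-1.57 ± 0.26, adjusted p of 2.67e-05) and Irak2, a kinase of the receptor complex, was higher, with 209 and 138 CPM in gamma-delta T-like cells, against 28.6 and 32.5 CPM in T-like cells (2.10 ± 0.52, adjusted p of 0.00838).

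Cytokines that lymphocytes release on IL-1 or IL-18 were mostly near 0. Ifng, which IL-18 is known for inducing, had no UMI in gamma-delta T-like cells, against 61.3 and 81.4 CPM in T-like cells, and was lower there (edgeR adjusted p of 0.041). It had 43.6 and 15.4 CPM in NK- or ILC1-like cells and was not called against T-like cells. The value of 15.4 CPM lay below the floor set by the depth of that class and library, 46.3 CPM. Il17a had 34.8 and 25.0 CPM in gamma-delta T-like cells, against 24.5 and 0 CPM in T-like cells, and was not tested. Both gamma-delta T-like values lay below the floors of that class, 52.1 and 37.5 CPM. The order of these classes for Il17a is therefore uncertain. Csf2, a growth factor for myeloid cells, had 1412 and 1604 CPM in ILC2-like cells, against 8.17 and 48.8 CPM in T-like cells (5.85 ± 0.34, adjusted p of 3.02e-17).

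Other members of the family were unequal too. Of 10 relatives and shared subunits, 3 were tested. Mesothelial-like cells carried Il33, an alarmin of barrier and stromal cells, at 91.5 and 100.1 CPM, against 59.4 and 57.3 CPM in fibroblast-like cells (0.54 ± 0.21, edgeR adjusted p of 0.0436). The Pi16 fibroblast-like cluster had 97.6 and 101.6 CPM of Il33, as much as mesothelial-like cells, and the other 3 clusters had 20.1 to 50.2 CPM. Sigirr, an inhibitory receptor of the family, had 40.8 and 42.7 CPM in endothelial-like cells, against 0 and 1.22 CPM in fibroblast-like cells (5.32 ± 0.68, adjusted p of 4.11e-09), and 86.9 and 50.0 CPM in gamma-delta T-like cells. Il1rap, the chain shared by the receptors of IL-1 and IL-33, reached at most 19.4 CPM in any class and library, and had no UMI in ILC2-like, NK- or ILC1-like and B-like cells.

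In gamma-delta T-like cells Il1r1 and Il18r1, which each encode a single chain of a receptor, were detected together in some cells. Of 78 thinned cells, 12 had an Il1r1 UMI, 18 an Il18r1 UMI and 6 had both (7.69%, against 3.55% if detected independently), with 3 such cells in each library. Of the cells with an Il1r1 UMI 50.0% also had an Il18r1 UMI, against 18.2% of those without. These cells are few, and the pairing was not tested. Il1rap, the accessory chain of the IL-1 receptor, had 0 and 1 UMI in this class.

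Across the 24 sums of 12 classes in 2 libraries, the pattern of each member was set beside 8225 other genes by Pearson correlation of log2(CPM + 10), as a description over sums that share the same 2 libraries and differ in depth. Il1b was most like Tnip3 (r of 0.98), Clec4b1 (0.96) and Alox5ap (0.95), and Il1rn most like Clec4a2 (0.98), Clec4d (0.97) and Fcrls (0.95). For Il1a they were Serpinb8 (0.98), P2ry6 (0.97) and C3ar1 (0.97). Il18r1 was most like the T cell receptor chain genes Cd3g (0.95) and Cd3e (0.94) and Icos (0.94), whereas Il18rap was most like Txk (0.97), Il2rb (0.94) and Sh2d2a (0.94). Il18 was nearest to Pianp (0.93), Il1r1 to Lrrn2 (0.87), Il1r2 to Flrt3 (0.88) and Il18bp to B230118H07Rik (0.80).

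The clusters without a name carried members as well. The Top2a cluster of 51 cells had 788 and 958 CPM of Il1b and 202 and 64.8 CPM of Il1r1. It was the only cluster with over 50 CPM of both in each library. All 10 fibroblast markers were detected in its cells with an Il1r1 UMI, at 18267 and 26089 CPM, and in those without, at 17039 and 20776 CPM, against 42413 and 38955 CPM in fibroblast-like cells; the part of fibroblast RNA or of joined cells in its Il1r1 level was not tested. When this cluster was counted as dendritic-like, which was chosen after seeing the data, Il1r1 was called higher in dendritic-like than in macrophage-like cells (edgeR adjusted p of 1.66e-06, with no Il1r1 UMI in macrophage-like cells to set a fold against), whereas without it dendritic-like cells had 1 Il1r1 UMI. The 29 cells led by Il13 had 3 and 14 UMIs of Il1r1 and 3 and 6 UMIs of Il18r1, in 7 cells of library 1 and 22 of library 2. Their 10 fibroblast markers summed to 36126 and 27589 CPM, and the part of fibroblast RNA in their Il1r1 level was not tested.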

How the data were processed

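Single-cell RNA-seq of 2 libraries, 1 per mouse, was read from 1 matrix of UMI counts per gene and barcode; the barcode suffix gave the library. Per the submitters' processing notes, Cell Ranger and the mm10 build made these deposited counts; versions and strand settings are not given in the sources used here. Cells with under 200 genes or over 10% mitochondrial UMIs (61) and Scrublet doublets (39 and 4) were removed. The doublet score threshold was 0.163 in library 1 and 0.313 in library 2, so doublets may remain. Cells were clustered with scanpy 1.11.5 (2000 variable genes, 30 components, Leiden resolution 1.0) without the 9 members and 6 related lists. Clusters were named from at least 3 markers. The rules that left 2 clusters without a name were set after seeing the data. Trac, Trbc2, Trdc, Tcrg-C1, Tcrg-C2 and Tcrg-V6 matched no single row, and the values of some markers are not reported here. Counts were summed per library and class (24 sums) and fitted in 1 model with edgeR 4.0.16 (R 4.3.3; filterByExpr, TMM, library as block, 11 residual degrees of freedom), in 8 comparisons; the block pairs classes of the same mouse. The scripts were tested on simulated data. CPM intervals are exact Poisson, shares exact Clopper-Pearson (95%), and floors 3 counts. Alternatives included DESeq2 1.42.0, the filters, the resolution, doublets and leaving out each library. Named genes are the 9 members, the counts of each list with up to 4 of its largest changes called, some further list genes chosen after their values were seen, and the 3 genes most like a member. The members and lists were chosen with earlier results of these data known. P-values rest on the scatter left among the 24 sums once class and library were fitted, pooled over all classes of the same 2 mice.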

Additional observations from a re-analysis of the deposited data

How the results depend on the processing

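The count of genes called stayed within 1.5 times of the reported one in 71 of 73 recomputed settings. The exceptions came without the replicate block, that is without pairing classes by mouse: NK- or ILC1-like over T-like cells then gave 142 calls (56 higher, 86 lower), against 248 (65 higher, 183 lower), and gamma-delta T-like over T-like cells gave 156, against 285. DESeq2's Wald test gave 337 higher and 108 lower genes for ILC2-like over T-like cells, against 356 and 213. Counting the Top2a cluster as dendritic-like gave 1068 higher and 820 lower over macrophage-like cells, against 679 and 821. DESeq2's Wald test also moved the median of all genes to -0.04, against -0.18, for NK- or ILC1-like over T-like cells, and to -0.07, against -0.17, for gamma-delta T-like over T-like cells. None of the called member fold changes turned direction in any of these settings. Beside the losses named with Il1b and Il1rn, Il1r1 gained calls as higher in monocyte-like than in macrophage-like cells. It was called at resolution 0.5 (edgeR adjusted p of 9.63e-05), where cells of the Top2a cluster joined the monocyte-like class. It was also called with the members among the clustering genes (edgeR adjusted p of 0.0386). The cause of the other changes was not tested. Of the CPM levels recomputed with other cell filters or clusterings, 498 moved by less than the spread between libraries and 33 by more; of the shares at other depths, 256 stayed within their intervals and 68 did not. Leaving out a library left 1 sum per class and gave values with no test. Depth limits Il1r2, Il18bp and Il18rap most, with under 80 UMIs each.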
